A study of Mus musculus with 32 samples.

Results

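The transcripts of 5 proteins that serve as markers of injured kidney tubules were followed in mouse kidney after cisplatin: Havcr1 (kidney injury molecule 1, Kim-1), Lcn2 (neutrophil gelatinase-associated lipocalin, NGAL), Clu (clusterin), Spp1 (osteopontin) and Lgals3 (galectin-3). They were picked by symbol, which each probe's transcript accession gave, among the 20659 named genes on the array, and each of the 5 had 1 probe printed at 1 spot. All 5 probes were well above background and unsaturated on all 32 arrays, so that all 5 were tested.

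The study hybridised total RNA from homogenised whole kidneys to single-colour arrays, 1 mouse to an array (males, 12 to 16 weeks of age), with independent animals per the labels. It compared wild type C57BL/6 mice with miR-155-/- mice, which carry a targeted allele of Mir155 (strain B6.Cg-Mir155tm1.1Rsky/J), at 0, 24, 48 and 72 h, and so bears on how the loss of this microRNA alters kidney toxicity. In each genotype the 0 h group received saline and the 24, 48 and 72 h groups received 1 dose of cisplatin at 20 mg/kg, with 4 mice in each of the 8 groups. The miR-155-/- mice came from The Jackson Laboratory and the wild type mice from Charles River, so that genotype and colony cannot be told apart, and with saline at 0 h alone the drug and the time since injection cannot be told apart either. The array held no probe matched to Mir155 or its host transcript by name, so that the loss of the microRNA was not checked here.

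As background, cisplatin is a platinum drug that injures mainly the tubular epithelium of the kidney, the proximal tubule above all. Kim-1 is a membrane receptor for phosphatidylserine that is almost absent from the healthy kidney and appears on injured proximal tubule cells, where it takes up dying cells. NGAL is a secreted carrier of iron-binding siderophores, made by distal nephron segments under stress and by neutrophils. Clusterin is a secreted chaperone, osteopontin a secreted phosphoprotein that binds integrins and CD44, and galectin-3 a lectin that binds galactosides on glycoproteins. The deleted microRNA acts through its seed, the stretch that pairs with target transcripts, and it is shown here because its loss is the genotype compared. Its mature 5p strand (RefSeq, build GRCm38.p6, chromosome 16, 84714143 to 84714165, plus strand) follows 5′ to 3′ with the seed, bases 2 to 8, in capitals.
mmu-miR-155-5p: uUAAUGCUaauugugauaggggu

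The 250 bases before the start of transcription are shown for the members held in the RefSeq promoter table (build GRCm38.p6), because all of these transcripts had risen by 72 h after cisplatin. The windows lie at chr11:46739973-46740222 for Havcr1, chr2:32387740-32387989 for Lcn2, chr5:104434861-104435110 for Spp1 and chr14:47373610-47373859 for Lgals3, on the plus strand except for Lcn2 on the minus strand. The first of 3 starts of Havcr1 and the first of 2 starts of Spp1 are given. Capitals mark matches, on either strand, to 4 motifs: TGANTCA for AP-1, TTCNNNGAA for STAT, GGG followed by any 5 bases and CC for NF-kappaB and TATAAA for the TATA box.
Havcr1: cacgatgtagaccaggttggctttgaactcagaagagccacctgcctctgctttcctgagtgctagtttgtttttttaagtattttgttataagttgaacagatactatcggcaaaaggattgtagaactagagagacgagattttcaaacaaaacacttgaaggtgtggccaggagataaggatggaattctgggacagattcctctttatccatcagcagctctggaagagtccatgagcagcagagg
Lcn2: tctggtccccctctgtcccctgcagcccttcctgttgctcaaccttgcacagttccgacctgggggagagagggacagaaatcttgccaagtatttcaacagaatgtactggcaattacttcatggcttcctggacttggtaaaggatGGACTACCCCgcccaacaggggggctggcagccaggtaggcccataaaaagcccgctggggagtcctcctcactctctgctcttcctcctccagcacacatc
Spp1: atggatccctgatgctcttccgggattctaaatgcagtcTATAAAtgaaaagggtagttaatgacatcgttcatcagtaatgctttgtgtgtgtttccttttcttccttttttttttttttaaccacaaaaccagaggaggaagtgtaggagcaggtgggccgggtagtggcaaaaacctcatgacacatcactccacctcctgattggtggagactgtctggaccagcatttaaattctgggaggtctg
Lgals3: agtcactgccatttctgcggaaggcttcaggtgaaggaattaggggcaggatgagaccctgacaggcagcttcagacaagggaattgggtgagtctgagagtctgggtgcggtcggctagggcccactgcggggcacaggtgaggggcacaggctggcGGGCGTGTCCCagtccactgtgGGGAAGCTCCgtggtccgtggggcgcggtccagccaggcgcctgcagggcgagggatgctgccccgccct
The NF-kappaB pattern matched at 1 place before Lcn2 and at 3 before Lgals3, of which a pair overlap, and it matched in 45.8% of the 32851 windows of this length in the table. The TATAAA pattern matched before Spp1, at -211 to -206 from the start of transcription, and in 12.4% of windows. The AP-1 pattern, found in 6.75% of windows, and the STAT pattern, found in 7.02%, had no match in these 4 windows.

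Each value given is the log2 of the processed signal minus the 75th percentile of its array, which puts arrays on a common scale. Levels compare arrays for 1 probe and not probes with each other. Differences between groups are log2 differences ± the standard error of the limma fit, with 4 arrays in each group. A transcript is said to rise or fall where its Benjamini-Hochberg adjusted p over the 23743 genes and transcripts tested was under 0.05. All 14 proximal tubule markers and all 14 markers of the later nephron were well above background on at least 1 array of every group. The same held for most markers of the other cell types listed. By that measure no marker defining kidney tubule was absent. The array percentile lay between 1531 and 2647 intensity units. The miR-155-/- replicate 3 arrays at 24 h and 48 h stood apart from their groups, with median correlations to their own group of 0.9645 and 0.9613 against 0.9866 to 0.9947 for the other 30 arrays, and results that rest on them are given with and without them.

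After cisplatin all 5 transcripts had risen by 72 h in both genotypes, but they did not rise at the same time. In wild type kidney 2 of 5 rose at 24 h (Havcr1 and Lgals3), where 21% of all genes tested rose. At 48 h 4 of 5 rose, all but Clu, against 12.2% of genes, and at 72 h 5 of 5, against 12.5%. In miR-155-/- kidney 4 of 5 rose at 24 h, all but Clu, against 26.6% of genes. All 5 rose at 48 h and at 72 h, against 22.7% and 17.7%. No member fell past the threshold in any of these 6 comparisons. The median difference of the 5 members from saline was 0.94 at 24 h and 2.27 at 72 h in wild type, beside 0.07 and 0.03 over all genes tested. In miR-155-/- it was 1.89 and 2.89, beside -0.01 and -0.02.

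**Figure D1:**
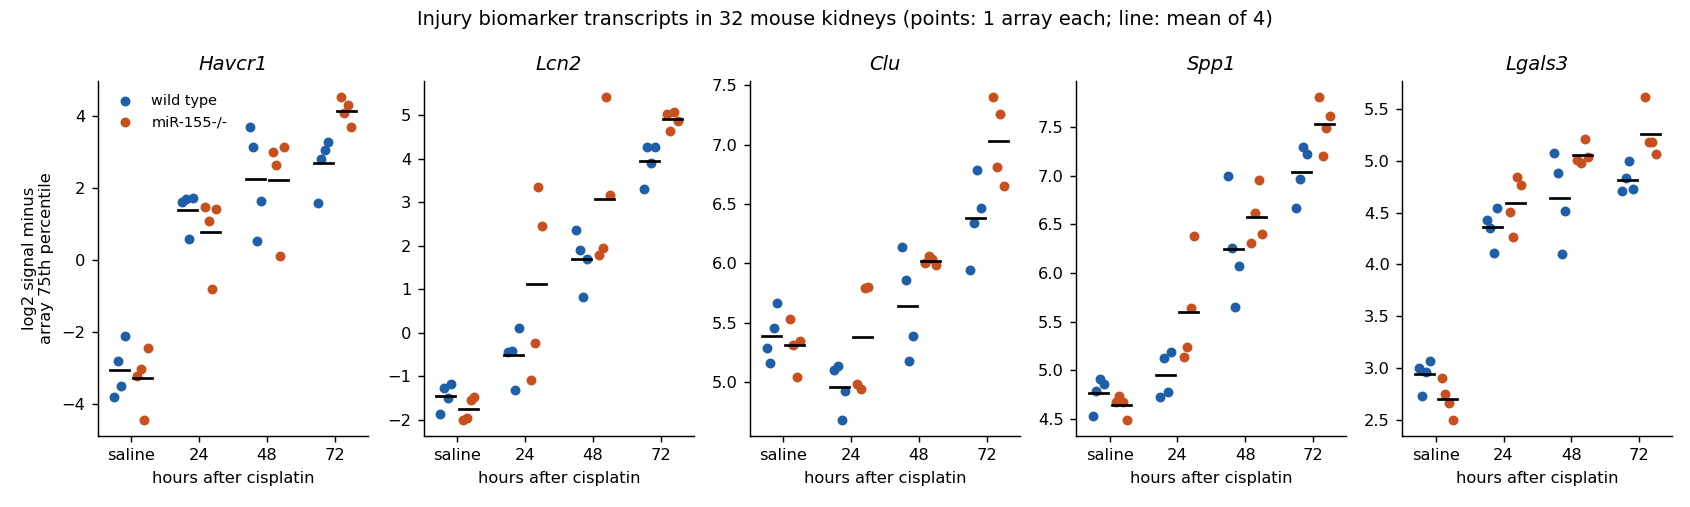
Log2 signal relative to the 75th percentile of the array (vertical axis, a separate scale for each transcript) against hours after cisplatin, with 1 point per array, wild type in blue, miR-155-/- in orange and a line at each mean of 4. Havcr1 and Lgals3 are already high at 24 h, Lcn2 and Spp1 climb through 72 h, Clu rises last, and the saline arrays of both genotypes lie together.

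Havcr1, the Kim-1 receptor, had the largest mean rise of the 5 at every time in both genotypes. In wild type most of its 72 h rise, on the log2 scale, was present at 24 h. The wild type saline arrays read -3.81, -2.81, -3.51 and -2.12, and the 24 h arrays 1.61, 1.69, 0.58 and 1.71. The groups lay far apart, with every treated array above every saline array. The rise was 4.46 ± 0.64 on the log2 scale, 22.0-fold (adjusted p = 3.18e-06). At 48 h the wild type arrays read 3.71, 3.15, 0.53 and 1.66, and at 72 h 1.59, 2.82, 3.06 and 3.30. The 48 h group held a high pair and a low pair and overlapped the groups on either side of it. The rise from saline was 5.32 ± 0.64 at 48 h (40.1-fold, adjusted p = 4.1e-07) and 5.75 ± 0.64 at 72 h (53.9-fold, adjusted p = 9.46e-08), of which 77.5% on the log2 scale was present at 24 h.

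In miR-155-/- kidney the saline arrays of Havcr1 read -3.22, -3.04, -4.44 and -2.46, and the 24 h arrays 1.46, 1.09, -0.82 and 1.41. The replicate 3 array at 24 h was the low array of its group. The rise was 4.08 ± 0.64 (16.9-fold, adjusted p = 9.29e-06), or 4.61 without replicate 3. The 48 h arrays read 2.99, 2.63, 0.12 and 3.14, and the 72 h arrays 4.53, 4.09, 4.31 and 3.69. Replicate 3 was again the low array at 48 h, while the 72 h arrays lay close together, and only the lowest of them was under any array of another group, the highest at wild type 48 h. The rise was 5.51 ± 0.64 at 48 h (45.6-fold), or 6.21 without replicate 3, and 7.45 ± 0.64 at 72 h (174-fold, adjusted p = 5.45e-10). Of the 72 h rise 54.7% was present at 24 h, with replicate 3 included. From lowest to highest, the group means ran miR-155-/- saline, wild type saline, miR-155-/- 24 h, wild type 24 h, miR-155-/- 48 h, wild type 48 h, wild type 72 h and miR-155-/- 72 h. Neighbouring groups overlapped except at the step from saline to treated kidneys and at the last step.

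Lcn2, the NGAL transcript, rose in wild type kidney between 24 and 72 h, and was called at 24 h in miR-155-/- kidney. The difference between the genotypes' rises at 24 h was not called by limma (1.93 ± 0.96, adjusted p = 0.94). The wild type saline arrays read -1.88, -1.26, -1.50 and -1.19, and the 24 h arrays -0.45, -0.42, -1.32 and 0.10. The groups overlapped through replicate 3, and the difference of 0.94 ± 0.68 did not pass the test (adjusted p = 0.29). It passed with array weights or with only the groups compared in the fit (adjusted p = 0.0482 and 0.0173, within a range of 0.0173 to 0.482 over 25 settings). At 48 h the arrays read 2.37, 1.90, 0.83 and 1.70, and at 72 h 3.30, 4.28, 3.91 and 4.28. Each group lay wholly above the one before it. The rise was 3.16 ± 0.68 at 48 h (8.92-fold, adjusted p = 0.000941) and 5.40 ± 0.68 at 72 h (42.2-fold, adjusted p = 7.1e-07).

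For Lcn2 in miR-155-/- kidney, the saline arrays read -2.003, -1.97, -1.55 and -1.48, and the 24 h arrays -1.08, -0.23, 3.36 and 2.44. The 24 h group was split, with replicates 1 and 2 near wild type and replicates 3 and 4 above every wild type array at 48 h. The rise was 2.87 ± 0.68 (7.32-fold, adjusted p = 0.00097) and 2.13 without replicate 3 (adjusted p = 0.00858). Readings at 48 h were 1.79, 1.95, 5.42 and 3.17, and the 72 h arrays 5.04, 4.65, 5.07 and 4.87. Replicate 3 at 48 h was the highest Lcn2 array of all 32, and the 72 h arrays lay within a narrow band. The rise was 4.83 ± 0.68 at 48 h (28.4-fold), or 4.05 without replicate 3, and 6.66 ± 0.68 at 72 h (101-fold, adjusted p = 1.23e-08). The group means ran in the order miR-155-/- saline, wild type saline, wild type 24 h, miR-155-/- 24 h, wild type 48 h, miR-155-/- 48 h, wild type 72 h and miR-155-/- 72 h. Of the neighbours in that order, only the last pair did not overlap.

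Clu, the clusterin chaperone, had the smallest rise of the 5 and was the last to rise. The wild type saline arrays read 5.29, 5.16, 5.46 and 5.67, and the 24 h arrays 5.11, 5.13, 4.68 and 4.93. All 4 arrays at 24 h lay below all 4 saline arrays, while the difference of -0.43 ± 0.21 did not pass the test (adjusted p = 0.11). It did with array weights and with only the groups compared in the fit (adjusted p = 0.0149 and 0.0188, within 0.0149 to 0.269 over 25 settings). At 48 h the arrays read 6.14, 5.86, 5.18 and 5.39, and at 72 h 5.95, 6.34, 6.79 and 6.46. At 48 h a pair of arrays lay within the saline range and a pair above it, and at 72 h all 4 were above it. The difference from saline was 0.25 ± 0.21 at 48 h (adjusted p = 0.44), and the rise at 72 h was 0.99 ± 0.21 (1.99-fold, adjusted p = 0.000787).

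For Clu in miR-155-/- kidney, the saline arrays read 5.54, 5.31, 5.05 and 5.35, and the 24 h arrays 4.98, 4.94, 5.80 and 5.80. Replicates 1 and 2 lay below the saline range and replicates 3 and 4 above it, the same split as for Lcn2. The mean difference was 0.07 ± 0.21 (adjusted p = 0.813). The 48 h arrays read 6.00, 6.07, 6.04 and 5.99, and the 72 h arrays 7.40, 6.81, 7.26 and 6.65. The 48 h arrays were nearly equal and all above those at 24 h, and the 72 h arrays were all above those at 48 h. The rise was 0.71 ± 0.21 at 48 h (1.64-fold, adjusted p = 0.00796), a call lost after normexp background correction (adjusted p = 0.0989, with a range of 0.000963 to 0.0989 over 25 settings), and 1.72 ± 0.21 at 72 h (3.29-fold, adjusted p = 3.1e-07). The lowest group mean of Clu was wild type 24 h, followed by miR-155-/- saline, miR-155-/- 24 h, wild type saline, wild type 48 h, miR-155-/- 48 h, wild type 72 h and miR-155-/- 72 h, and every pair of neighbours overlapped.

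Spp1, which encodes the integrin and CD44 ligand osteopontin, rose between 24 and 48 h in wild type kidney. The wild type saline arrays read 4.53, 4.79, 4.91 and 4.86, and the 24 h arrays 4.73, 5.13, 4.78 and 5.18. The groups overlapped and the difference of 0.18 ± 0.23 did not pass the test (adjusted p = 0.561). At 48 h the arrays read 6.997, 6.26, 5.65 and 6.08, and at 72 h 6.67, 6.96, 7.30 and 7.23. All arrays of both later groups lay above all arrays at 24 h. The rise was 1.48 ± 0.23 at 48 h (2.78-fold, adjusted p = 2e-05) and 2.27 ± 0.23 at 72 h (4.82-fold, adjusted p = 2.31e-08).

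For Spp1 in miR-155-/- kidney, the saline arrays read 4.68, 4.73, 4.67 and 4.49, and the 24 h arrays 5.14, 5.24, 5.64 and 6.39. Here all treated arrays were above all saline arrays at 24 h. The rise was 0.96 ± 0.23 (1.94-fold, adjusted p = 0.00116). Readings at 48 h were 6.31, 6.62, 6.95 and 6.41, and the 72 h arrays 7.81, 7.20, 7.50 and 7.61. Replicate 3 was the highest of the 48 h group, and the 72 h group lay above the whole 48 h group. The rise was 1.93 ± 0.23 at 48 h (3.80-fold, adjusted p = 2.19e-07) and 2.89 ± 0.23 at 72 h (7.39-fold, adjusted p = 1.57e-10). The group means ran in the same order as those of Lcn2, and every pair of neighbours overlapped.

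Lgals3, which encodes the lectin galectin-3, had risen in both genotypes by 24 h, and later gains were smaller. The wild type saline arrays read 3.0, 2.73, 2.96 and 3.06, and the 24 h arrays 4.43, 4.35, 4.11 and 4.54. The groups were wide apart, and the rise was 1.42 ± 0.16 (2.68-fold, adjusted p = 5.39e-08). At 48 h the arrays read 5.08, 4.88, 4.10 and 4.52, and at 72 h 4.71, 4.83, 4.998 and 4.73. The 48 h arrays spread across the range of both other treated groups. The rise was 1.71 ± 0.16 at 48 h (3.26-fold, adjusted p = 4.71e-09) and 1.88 ± 0.16 at 72 h (3.68-fold, adjusted p = 6.24e-10), and 75.6% of the 72 h rise was present at 24 h.

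For Lgals3 in miR-155-/- kidney, the saline arrays read 2.90, 2.75, 2.66 and 2.50, and the 24 h arrays 4.50, 4.27, 4.85 and 4.77. All treated arrays were far above saline. The rise was 1.89 ± 0.16 (3.72-fold, adjusted p = 3.57e-10), which was 74% of that at 72 h. The 48 h arrays read 5.01, 4.98, 5.21 and 5.04, and the 72 h arrays 5.62, 5.18, 5.18 and 5.06. Replicate 3, low for Havcr1 at 48 h, was the highest Lgals3 array of that group. The rise was 2.36 ± 0.16 at 48 h (5.12-fold, adjusted p = 6.19e-12) and 2.56 ± 0.16 at 72 h (5.89-fold, adjusted p = 1.07e-12). The group means ran miR-155-/- saline, wild type saline, wild type 24 h, miR-155-/- 24 h, wild type 48 h, wild type 72 h, miR-155-/- 48 h and miR-155-/- 72 h, and the only neighbours that did not overlap were wild type saline and wild type 24 h.

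**Figure D2:**
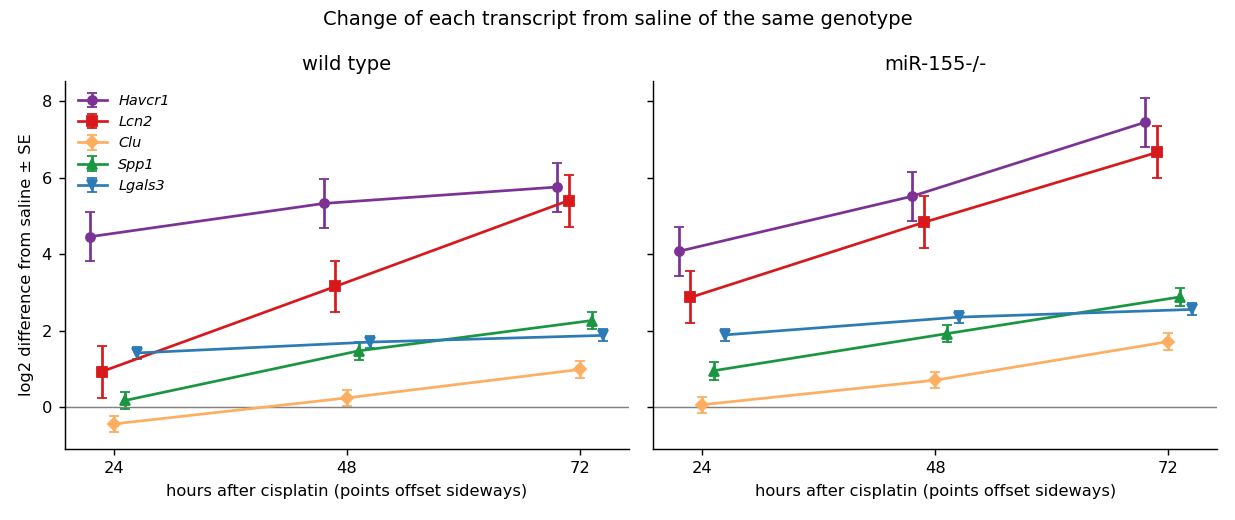
Log2 difference from saline of the same genotype (vertical axis, ± standard error of the fit, 4 arrays in each group) against hours after cisplatin for the 5 transcripts, wild type on the left and miR-155-/- on the right. Havcr1 starts high, Lcn2 climbs to meet it by 72 h, Lgals3 gains little after 24 h, and Clu starts at or below 0.

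The steps between treated times set the transcripts apart. From 24 to 48 h in wild type kidney 3 of 5 rose, against 5.88% of all genes tested: Lcn2 by 2.22 ± 0.68 (adjusted p = 0.0281), Clu by 0.68 ± 0.21 (adjusted p = 0.0317) and Spp1 by 1.29 ± 0.23 (adjusted p = 0.000393). The Spp1 call held in all 25 settings tried, while those of Lcn2 and Clu were lost with slide as a fixed block and without single arrays. Lcn2 was no longer called without wild type replicate 1, 2 or 3 at 24 h or 1, 2 or 4 at 48 h, and Clu without 3 or 4 at 24 h or 1 or 2 at 48 h (without 48 h replicate 1, adjusted p = 0.0856 for Lcn2 and 0.143 for Clu). Lgals3 was called, at 0.47, without 48 h replicate 3. Over all arrays Havcr1 and Lgals3, the early risers, differed by 0.87 ± 0.64 (adjusted p = 0.442) and 0.28 ± 0.16 (adjusted p = 0.271). From 48 to 72 h in wild type 0 of 5 were called by limma, against 0.661% of genes called higher. At an unadjusted p under 0.05 there were 3 of 5 (Lcn2, Clu and Spp1), beside 1924 of the 23743 genes tested, in either direction. The Lcn2 arrays at 72 h were nonetheless all above those at 48 h, by 2.24 ± 0.68 (adjusted p = 0.134, or 0.00578 when the miR-155-/- arrays that stand apart were left out of the shared spread). From 24 to 72 h 4 of 5 rose, against 11.9% of genes. They were Lcn2 (4.46 ± 0.68), Spp1 (2.09 ± 0.23), Clu (1.42 ± 0.21) and Lgals3 (0.46 ± 0.16), and Havcr1 differed by 1.30 ± 0.64 (adjusted p = 0.143). Havcr1 was called at about the same size with array weights, with only the groups compared and without the miR-155-/- arrays that stand apart (adjusted p = 0.0341, 0.0162 and 0.0454, within 0.0162 to 0.31 over 25 settings). The Lgals3 call was lost under quantile normalization (adjusted p = 0.0983), after normexp, and without replicate 2 or 3 of either time (adjusted p up to 0.105).

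In miR-155-/- kidney 1 of 5 rose from 24 to 48 h, against 2.02% of genes: Spp1, by 0.97 ± 0.23 (adjusted p = 0.0156). After normexp background correction the Spp1 call was lost (0.72, adjusted p = 0.0544) and Lcn2 was called in its place (1.77, adjusted p = 0.0461). The count rested on single arrays: without miR-155-/- 24 h replicate 1 or replicate 2 it was 0, without 24 h replicate 3 it was 4, and without 48 h replicate 3 it was 3. From 48 to 72 h 2 of 5 rose, against 3.16% of genes: Clu by 1.01 ± 0.21 (adjusted p = 0.00452) and Spp1 by 0.96 ± 0.23 (adjusted p = 0.0117). Havcr1 was higher by 1.93 ± 0.64 with no overlap (adjusted p = 0.068), and by 1.23 without 48 h replicate 3. Lcn2 was higher by 1.83 ± 0.68 (adjusted p = 0.103), and by 2.61 without that array (adjusted p = 0.0148). From 24 to 72 h all 5 rose, against 13.6% of genes, from 0.66 ± 0.16 for Lgals3 to 3.79 ± 0.68 for Lcn2.

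The sizes of the log2 rise of transcripts were compared by exact 2-sided permutation of the arrays between times within each genotype. There were 10 pairs over each of 2 intervals, and the test was chosen after the values were seen. It compares sizes of rise and not timing. Of the 72 h rise, 77.5% for Havcr1 and 75.6% for Lgals3 was present at 24 h in wild type. In miR-155-/- these shares were 54.7% and 74%, with 24 h replicate 3 included, and shares without it were not computed. From saline to 24 h, averaged over the genotypes, Havcr1 rose more than each of the other 4. The excess was 2.36 over Lcn2 (exact p = 0.015, adjusted over the 20 tests 0.0189), 2.61 over Lgals3 (adjusted exact p = 0.00148), and 3.70 over Spp1 and 4.45 over Clu (adjusted exact p = 0.000907 for each, from the smallest p the permutations can give, 0.00041). Without miR-155-/- replicate 3 the rise at 24 h in that genotype was 4.61 for Havcr1 and 2.13 for Lcn2, a larger gap than with it. Lgals3 rose more than Spp1 over the same interval, by 1.09 in the mean of the genotypes, and more than Clu, by 1.84 (adjusted exact p = 0.000907 for each). Over this interval Lcn2 and Lgals3 were not told apart in size of rise (adjusted exact p = 0.619). Their difference was -0.49 in wild type and 0.98 in miR-155-/-. The share of the 72 h rise present at 24 h was lower for Lcn2 in both genotypes. It was 17.4% in wild type and 43.1% in miR-155-/-, against 75.6% and 74% for Lgals3. The miR-155-/- shares again include 24 h replicate 3.

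From 24 to 72 h Lcn2, not Havcr1, had the largest mean gain. It rose more than Lgals3, by 3.56, more than Clu, by 2.59 (adjusted exact p = 0.000907 for each), and more than Spp1, by 2.12 (adjusted exact p = 0.00314). Against Havcr1 the excess of Lcn2 was 3.17 in wild type and 0.42 in miR-155-/- and did not pass (adjusted exact p = 0.0707). Clu and Spp1, which were not called at 24 h in wild type, both rose more than Lgals3 in this interval, by 0.98 and 1.44 (adjusted exact p = 0.000907 for each). Havcr1 also rose more than Lgals3 here, by 1.77 (adjusted exact p = 0.00272).

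The genotypes were compared at each time, and no member was called. In saline 0 of 5 were called by limma and 0 had an unadjusted p under 0.05, against 0.114% of genes called in either direction. The largest difference between genotypes in saline was -0.29 ± 0.68 for Lcn2, with a 95% interval of -1.68 to 1.10. At 24 h 0 of 5 were called, against 0.08% of genes, and at 48 h 0 of 5, against 0.101%. At an unadjusted p under 0.05 there were 2 of 5 at 24 h, beside 2210 of the 23743 genes tested. At 48 h there was 1 of 5, beside 3598 genes. Lcn2 was higher in miR-155-/- by 1.64 ± 0.68 at 24 h (interval 0.25 to 3.03, adjusted p = 0.518), a value that was 0.90 without miR-155-/- 24 h replicate 3 and 2.38 without replicate 1. Spp1 was higher by 0.65 ± 0.23 (interval 0.18 to 1.12, adjusted p = 0.503), and Havcr1 differed by -0.61 ± 0.64 (interval -1.92 to 0.70). At 48 h the Lcn2 difference was 1.38 ± 0.68 (interval -0.01 to 2.77) and 0.60 without replicate 3, and the Havcr1 difference was -0.04 ± 0.64 and 0.66 without it.

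At 72 h all 5 means were higher in miR-155-/- kidney, again with 0 of 5 called by limma, against 0.72% of genes. At an unadjusted p under 0.05 there were 4 of 5 members, beside 2579 of the 23743 genes tested. Havcr1 was higher by 1.47 ± 0.64 (2.76-fold, interval 0.16 to 2.78, adjusted p = 0.369), Lcn2 by 0.97 ± 0.68 (1.95-fold, interval -0.43 to 2.36, adjusted p = 0.683) and Clu by 0.65 ± 0.21 (1.56-fold, interval 0.21 to 1.08, adjusted p = 0.173). Spp1 was higher by 0.49 ± 0.23 (interval 0.02 to 0.96, adjusted p = 0.43) and Lgals3 by 0.44 ± 0.16 (interval 0.12 to 0.77, adjusted p = 0.221). For Havcr1, Lcn2 and Lgals3 all 4 miR-155-/- arrays lay above all 4 wild type arrays, a pattern seen in 6.04% of all genes tested. With array weights, which let tight arrays count for more, 3 of 5 were called (Havcr1, Clu and Lgals3), and with only the groups compared in the fit 2 of 5 (Havcr1 and Lcn2), so that the adjusted p of Havcr1 ran from 0.0212 to 0.783 over 25 settings.

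The difference between the genotypes' rises from saline was tested as an interaction and called no member at any time: 0 of 5 at 24 h (2 at an unadjusted p under 0.05), 0 of 5 at 48 h (1 unadjusted) and 0 of 5 at 72 h (2 unadjusted). The same test called 0% of all genes at 24 h and at 48 h and 0.211% at 72 h. At an unadjusted p under 0.05 there were 785, 1702 and 1797 of the 23743 genes tested. At 72 h the rise in miR-155-/- exceeded that in wild type by 1.69 ± 0.90 for Havcr1 (interval -0.16 to 3.54), 1.26 ± 0.96 for Lcn2 (interval -0.71 to 3.22), 0.73 ± 0.30 for Clu (adjusted p = 0.499) and 0.68 ± 0.22 for Lgals3 (adjusted p = 0.283). With only the groups compared 2 of 5 were called, Lcn2 and Lgals3, and with array weights 1, Lgals3. These misses of the threshold do not show that the genotypes were alike, since the intervals for Havcr1 and Lcn2 each span more than 3 log2 units.

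**Figure D3:**
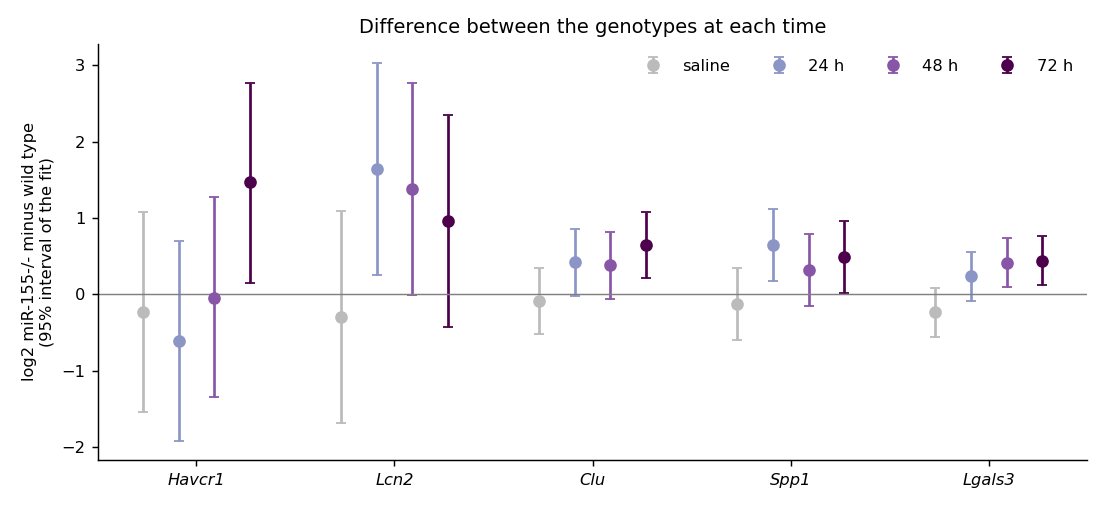
Log2 difference of miR-155-/- minus wild type (vertical axis) for each transcript in saline and at 24, 48 and 72 h, with the 95% interval of the fit. At 72 h all 5 points lie above 0, with wide intervals for Havcr1 and Lcn2 and narrow ones for Clu, Spp1 and Lgals3.

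The transcripts differed in how much mice of a group varied. The SD over 4 arrays of Havcr1 ran from 0.36 at 72 h in miR-155-/- to 1.44 at 48 h in wild type, and was larger than that of 99.5% of all genes tested in the latter group. It was also wide in saline, at 0.76 in wild type and 0.83 in miR-155-/-, where its signal was lowest. The SD of Lcn2 was 2.12 and 1.68 at 24 and 48 h in miR-155-/- and 0.19 at 72 h. The median SD over all genes tested was 0.37 and 0.35 in the first pair of these groups and 0.21 in the last. Clu, Spp1 and Lgals3 varied less, with median SDs over the 8 groups of 0.28, 0.27 and 0.18, beside 0.80 for Havcr1 and 0.52 for Lcn2. The smallest SD of any member, 0.0350, was that of Clu at 48 h in miR-155-/-, and 0.4% of genes tested had a smaller SD there. In that group the SDs of Havcr1 and Lcn2 were 1.42 and 1.68. All SDs and medians at 24 and 48 h in miR-155-/- include replicate 3, which stood apart. At 48 h it read 0.12 for Havcr1 against 2.63 to 3.14 on the other arrays, and at 24 h -0.82 against 1.09 to 1.46. For Lcn2 it read 5.42 at 48 h against 1.79 to 3.17, and 3.36 at 24 h against -1.08 to 2.44. SDs without it were not computed. These spreads are descriptions with no test.

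**Figure D4:**
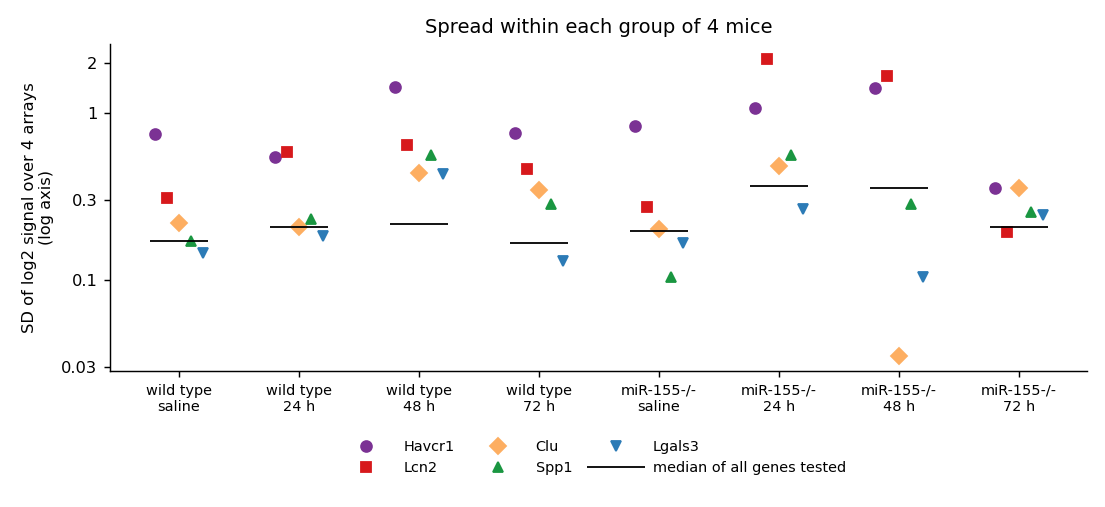
SD of the log2 signal over the 4 arrays of a group (vertical axis, logarithmic) for each transcript in the 8 groups, with a black line at the median over all genes tested. Havcr1 and Lcn2 lie well above that line at 24 and 48 h in miR-155-/- and closer to it at 72 h, while Clu drops to 0.035 at 48 h in miR-155-/-. The miR-155-/- groups at 24 and 48 h include replicate 3, which stood apart.

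Within groups the mice that were high for Lcn2, Clu, Spp1 or Lgals3 were high for the other 3. Each array's deviation from its group mean was correlated over the 24 cisplatin arrays, with 100000 permutations within groups and adjustment over the 10 pairs of members. All 6 pairs among these 4 transcripts passed, from r = 0.60 for Lcn2 with Lgals3 (Spearman's rho = 0.71, permutation p = 0.00039, adjusted 0.0019) to r = 0.83 for Clu with Lgals3 (rho = 0.82, permutation p = 9e-05, adjusted 0.0009), and r had the same sign in 6 of 6 groups for each. Without the pair of arrays farthest from the median of the first gene, r was between 0.61 and 0.80 for these 6 pairs. With slide means removed they lay between 0.69 and 0.85 and all passed. In the 12 wild type arrays alone all 6 passed, while in the 12 miR-155-/- arrays alone r was 0.64 to 0.84 and none did (permutation p adjusted over the pairs 0.1 to 0.11).

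Havcr1 did not pass with any of the other 4 over all 24 arrays. Its r was -0.29 with Lcn2 (rho = 0.001, permutation p = 0.32, adjusted 0.33), 0.37 with Clu, 0.28 with Spp1 and 0.35 with Lgals3 (permutation p adjusted over the pairs 0.19, 0.33 and 0.27). The miR-155-/- replicate 3 arrays at 24 and 48 h were the lowest of their groups for Havcr1 and the highest for Lcn2. Without them, over the 22 other arrays of both genotypes, r was 0.49 with Lcn2, 0.77 with Clu, 0.64 with Spp1 and 0.83 with Lgals3, and all 10 pairs passed (permutation p adjusted over the 10 pairs at most 0.0044). Without the farthest pair of those arrays as well, r with Lcn2 was 0.38. In the 12 wild type arrays alone r of Havcr1 was 0.88 with Lcn2 and 0.92 with Clu (permutation p adjusted over the pairs 0.0054 for each), and in the 12 miR-155-/- arrays -0.74 and -0.15 (adjusted 0.11 and 0.91). With both replicate 3 arrays dropped from those 12, r of Havcr1 was -0.17 with Lcn2, 0.30 with Clu, -0.03 with Spp1 and 0.31 with Lgals3. For these values the deviations were still taken from group means that included replicate 3. They cannot be set beside the r over 22 arrays, where the group means left replicate 3 out. The difference between the genotypes in r was not tested. On the same arrays the summed level of 8 red blood cell markers, in units of the array's 75th percentile, was 124 at 48 h and 34.7 at 24 h for replicate 3, against 1.12 to 6.17 and 3.79 to 10 for the other 3 arrays of each group. The summed neutrophil markers were also highest there, at 59.3 against 40 to 45.1 at 24 h and 52.1 against 40.6 to 47.2 at 48 h. Summed markers of thick limb, distal tubule and collecting duct at 48 h were 41.1 on replicate 3, the lowest of all 32 arrays, against 102 to 163 on the other 3. The part of these markers in the result was not tested.

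**Figure D5:**
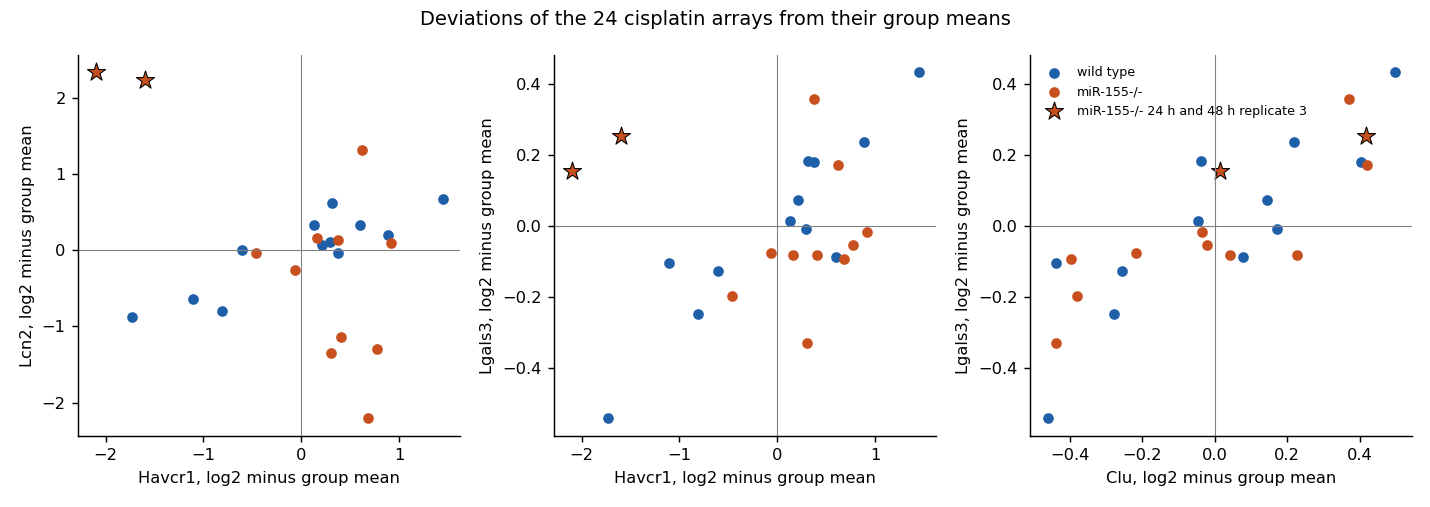
Deviation of each of the 24 cisplatin arrays from its group mean on the log2 scale, for Lcn2 against Havcr1, Lgals3 against Havcr1 and Lgals3 against Clu, wild type in blue and miR-155-/- in orange. The stars, miR-155-/- replicate 3 at 24 and 48 h, lie at low Havcr1 and high Lcn2 and fall on the common line for Clu and Lgals3.

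The transcripts with the most similar pattern to each member were sought by Pearson's r over the 32 arrays among 6159 named genes whose group means spanned at least 1 log2 unit. All points share the saline to cisplatin step, and these values are descriptions. For Havcr1 they were Plppr2, Icam1, Fetub, Il17rc and Cpt1c, led by Plppr2 (r = 0.96 over 32 arrays and 0.86 over the 24 cisplatin arrays) and including Icam1, an adhesion molecule for leukocytes (r = 0.96 over 32 arrays and 0.86 over the 24 cisplatin arrays). For Lcn2 they included Spp1, Mt2, Gm8439 and Golm1. Spp1, another member, had r = 0.96 over 32 arrays and 0.92 over the 24 cisplatin arrays, and Mt2, a metal-binding metallothionein, had r = 0.95 over 32 arrays and 0.92 over the 24 cisplatin arrays. Spp1 in turn had Lcn2 in second place behind Anxa3 (r = 0.96 over 32 arrays and 0.94 over the 24 cisplatin arrays), before Lgi2, Edn1 and Cxcl17. For Clu they were Itpr3, Adgrg2, Akap12, Wfdc2 and Hpcal4, led by Itpr3, a calcium channel of internal stores (r = 0.93 over 32 arrays and 0.94 over the 24 cisplatin arrays). For Lgals3 they were S100a11, B4galnt1, Sdc1, Arg2 and Lif, led by the calcium-binding S100a11 (r = 0.97 over 32 arrays and 0.86 over the 24 cisplatin arrays). The Lgals3 values fell most when saline was left out, as for Arg2, the mitochondrial arginase (r = 0.96 over 32 arrays and 0.72 over the 24 cisplatin arrays).

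Other genes tied to the members were counted from 3 lists, and values in brackets are log2 differences in wild type at 72 h unless said otherwise. Of 28 other kidney injury biomarkers tested, 8 rose and 6 fell at 72 h in wild type, and 15 rose and 6 fell in miR-155-/-, with medians of 0.15 and 0.43 beside 0.03 and -0.02 over all genes tested. Of all genes tested, 12.5% rose and 12.8% fell in wild type at 72 h, and 17.7% rose and 17.5% fell in miR-155-/-, and each list at 72 h is to be read against these shares. The risers with the smallest adjusted p were Gsta2, a glutathione transferase whose close paralogs a probe may not separate (2.78 ± 0.14), Gdf15, a stress cytokine (3.60 ± 0.21), Gstp1 (0.77 ± 0.12) and Gpnmb (3.32 ± 0.53). Among those that fell were Egf, the epidermal growth factor of the distal nephron (-2.57 ± 0.28), Calb1, a calcium-binding protein of the distal tubule (-2.04 ± 0.37) and Ggt1, a brush border enzyme (-1.11 ± 0.13). Of 29 genes of injured or dedifferentiated tubule, 19 rose and 0 fell in wild type and 26 rose and 0 fell in miR-155-/- at 72 h, with medians of 1.204 and 2.20. At 24 h 17 and 20 had risen. Examples in wild type at 72 h were Anxa3 (2.55 ± 0.26), the cytokine receptor Tnfrsf12a (2.66 ± 0.28), S100a10 (1.74 ± 0.19) and the fibrinogen chain Fgg (4.96 ± 0.61).

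Of 20 tested receptors and binding partners of the 5 proteins, 5 rose and 5 fell in wild type at 72 h, and 9 rose and 3 fell in miR-155-/-, with medians of -0.16 and 0.71. The fall in miR-155-/- was near the share of all genes that fell. Among the risers in wild type were Lgals3bp, a secreted ligand of galectin-3 (2.07 ± 0.22), Lrp8, a receptor reported for clusterin (2.05 ± 0.28), Mmp7, a protease that cleaves osteopontin (2.51 ± 0.48), and Itgb3, the beta chain of an osteopontin receptor (1.61 ± 0.39). Among those that fell were Lrp2, megalin, through which proximal tubule cells take up NGAL and clusterin (-1.17 ± 0.22), and the integrin chains Itga9 (-1.19 ± 0.25), Itga4 (-1.06 ± 0.23) and Itga8 (-1.50 ± 0.39). Lrp2 had its lowest wild type value at 24 h (-2.24 ± 0.22), while Lgals3bp had risen by 48 h (1.59 ± 0.22) and differed by 0.32 ± 0.22 at 24 h. After normexp background correction Lrp8, Mmp7, Itga9, Itga4 and Gpnmb were no longer called in wild type at 72 h, with the same sign.

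Some macrophage, proximal tubule and distal nephron markers fell while the members rose, among them Lrp2, Egf and Calb1, which stand in 2 lists each. In whole-kidney RNA, fewer cells of a type and less RNA per cell cannot be told apart. Of 14 macrophage and monocyte markers, whose cells can also make Spp1 and Lgals3, 0 rose and 9 fell in wild type at 72 h and 1 rose and 3 fell in miR-155-/-, the latter near the share of all genes that fell. Their summed level, in units of the array's 75th percentile, went from 27.7 to 30.3 over the wild type saline arrays to 12.3 to 16.5 at 72 h, and from 23.7 to 30.8 to 15.3 to 19.4 in miR-155-/-. Itgam and Csf1r were the brightest, and each marker was well above background on at least 1 array of every group.

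Of 9 neutrophil markers tested, whose cells can also make Lcn2, 0 rose and 0 fell in wild type at 72 h by limma. In miR-155-/- 3 rose at 24, 48 and 72 h alike, where 26.6%, 22.7% and 17.7% of all genes rose. At 24 and 48 h the count lies near that share. Those not called in miR-155-/- differed at 72 h by 1.18 (Cxcr2), 0.095 (Camp), 0.053 (Csf3r), -0.07 (Mpo), -0.29 (Elane) and -0.62 (Ltf). The 3 that rose were S100a8 and S100a9, calcium-binding proteins of neutrophils and monocytes, and Retnlg, named here after their values were seen. At 72 h in miR-155-/- they rose by 3.44 ± 0.69, 3.42 ± 0.65 and 4.20 ± 0.90, while in wild type the differences were -1.49 ± 0.69, -1.34 ± 0.65 and -0.72 ± 0.90. The difference between these responses passed for S100a8 and S100a9 (adjusted p = 0.0255 and 0.0229) and not for Retnlg (0.105). Part of it lay in saline, where miR-155-/- differed from wild type by -2.89 ± 0.69, -2.95 ± 0.65 and -2.63 ± 0.90, none of them called. Without both miR-155-/- replicate 3 arrays the 3 still rose in miR-155-/- at each time, the interaction at 72 h passed for all 3 (adjusted p at most 0.00939), and S100a8 and S100a9 fell in wild type at 72 h (adjusted p = 0.0327 and 0.0417). The arrays left out are not part of these 72 h contrasts. Their estimates did not change, and only the shared spread of the fit did. The summed level of the list, which the brightest markers dominate, was 44.6 to 51.9 and 44.4 to 49.9 in wild type saline and 72 h, and 36 to 47 and 40.5 to 51.3 in miR-155-/-. Csf3r and Elane were the brightest of the 11 on the array, and Ngp was well above background on no array in 6 of 8 groups.

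Proximal tubule markers, with Kap and Slc27a2 the brightest, fell: 13 of 14 in wild type at 24 h and 6 at 72 h, and 13 and 11 in miR-155-/-, where of all genes 17.6% and 22.5% fell at 24 h in wild type and miR-155-/-. Their summed level at 72 h was 741 to 877 in wild type and 511 to 689 in miR-155-/-, against 1100 to 1280 and 1020 to 1470 in saline. Of 14 markers of thick limb, distal tubule and collecting duct, with Umod and Kcnj1 the brightest, 11 fell at 24 h and 5 at 72 h in wild type, and 10 and 7 in miR-155-/-. The part of these cell types in the rise of the members was not tested.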

How the data were processed

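Single-colour arrays of 32 mice were read from the scanner files as deposited. Per the file headers the authors' scans were extracted with Feature Extraction 10.7.3.1, and the processed signal used here is an intensity with background already subtracted. The authors' deposited value table holds the same intensity multiplied by 1 factor per array (75th percentile 999.3 to 1000 on each), and served as an alternative. From these, log2 of the processed signal minus the array's 75th percentile was computed. Control spots and 59 to 976 spots flagged as outliers per array were left out. No spot was saturated, and 68.8% to 82.2% of the spots other than controls were well above background per array. Transcript accessions were matched to RefSeq names (GRCm38.p6): of 39429 probes 27234 (69.1%) had 1 symbol and 12195 none. For each gene or unnamed transcript the probe with the highest mean was kept if well above background on all 4 arrays of a group, leaving 23743, all 5 members among them.

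Group means were fitted with limma 3.58.1 in R 4.3.3 over all 32 arrays (8 groups, 24 residual degrees of freedom, trended prior, 2-sided), with Benjamini-Hochberg adjustment within each comparison, and the fit was tested on simulated data. The number of arrays limits the precision. Slide (8, with 4 arrays each) and scan day (2) were tried as blocks. Replicate numbers did not pair the samples. The members and lists were chosen with earlier results of these data known. Beside the members, the text names up to 4 called genes per direction of each pathway list with the smallest adjusted p in wild type at 72 h, 5 genes most like each member, and the 2 brightest markers of each cell type list, of which a few are not reported here. The normexp alternative used the median signal.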

Additional observations from a re-analysis of the deposited data

Results flagged for a closer look

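Of 40 sets of 4 arrays (5 transcripts in 8 groups), 3 had an array whose gap to its nearest neighbour, divided by the range of the set, was above Dixon's 95% critical value, and chance alone gives about 5% of sets. The count found lies near that rate. All 3 were Havcr1, and those in miR-155-/- were the replicate 3 arrays that stood apart. At 24 h in wild type, replicate 3 was the lowest at 0.58, with the next array at 1.61 (gap over range 0.906). At 24 h in miR-155-/-, replicate 3 was the lowest at -0.82, with the next at 1.09 (0.836). At 48 h in miR-155-/-, replicate 3 was the lowest at 0.12, with the next at 2.63 (0.831). Lcn2 on the same 3 arrays was the lowest of its group in wild type (-1.32) and the highest of its group in miR-155-/- (3.36 at 24 h and 5.42 at 48 h).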

How the results depend on the processing

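Calls against saline were the steadiest. Over 25 alternative settings for each contrast of groups, the count of members called against saline moved past 1.5 times only for wild type at 24 h, from 2 to 4 with array weights and to 4 with only the groups compared, which add Lcn2 and Clu. With array weights the counts were 3 for the genotypes at 72 h, 1 for their interaction at 72 h, 3 for wild type 72 h against 48 h and 5 for miR-155-/- 48 h against 24 h. With only the groups compared these 4 counts were 2, 2, 1 and 0, and miR-155-/- 72 h against 48 h went from 2 to 0. Slide as a fixed block gave 1 for wild type 48 h against 24 h and 3 for miR-155-/- 48 h against 24 h; slide as a random block gave 3 for the latter and 1 for wild type 72 h against 48 h. Quantile normalization gave 3 for miR-155-/- 48 h against 24 h. Without both miR-155-/- replicate 3 arrays (an alternative chosen after seeing the data) the counts were 3 for that contrast and 2 for wild type 72 h against 48 h, 10 pairs of members were correlated and r of Havcr1 with Lcn2 turned from -0.29 to 0.49. Leaving out each array in turn gave 1 to 4 for wild type 48 h against 24 h, 0 to 1 for 72 h against 48 h and 3 to 4 for 72 h against 24 h, and 0 to 4 for miR-155-/- 48 h against 24 h and 2 to 3 for 72 h against 48 h. The cause of these moves was not tested. Normexp background correction moved the median of all genes by over 0.1, for miR-155-/- 48 h against saline from -0.05 to 0.31, and ended the Clu call there (0.56, adjusted p = 0.0989, limma). Within single slides that held both groups, 120 of 135 differences had the direction of the pooled value, among them all 58 for called results. No slide held both wild type saline and wild type 72 h arrays, so that contrast could not be checked within slides.

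With a replicate block the counts of members called did not move except for miR-155-/- 72 h against 48 h, 3 in place of 2, which adds Havcr1 (1.93, adjusted p = 0.0281, limma). Same-numbered arrays did not deviate together (median correlation of deviations 0.004, against 0.246 for arrays of 1 slide), so the numbers do not pair the mice.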

Other observations

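Among 19 tested relatives of the 5 proteins, 4 rose and 2 fell at 72 h in wild type, and 5 rose and 2 fell in miR-155-/-, beside 12.5% of all genes that rose and 12.8% that fell in wild type and 17.7% and 17.5% in miR-155-/-. The count that fell is thus near or below that of all genes. The 4 that rose in wild type were all galectins like Lgals3: Lgals4 by 1.59 ± 0.16, Lgals1 by 0.92 ± 0.18, Lgals8 by 0.67 ± 0.12 and Lgals7 by 1.30 ± 0.44 on the log2 scale (limma, standard error of the fit). The 2 that fell were lipocalins like Lcn2: Apom, a carrier of sphingosine phosphate on lipoproteins (-0.84 ± 0.19), and Rbp4, the plasma carrier of retinol (-1.43 ± 0.51). The calls of Lgals7 and Rbp4 were lost after normexp background correction.

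Other cell type lists at 72 h are counted against the same shares. Of 10 fibroblast and matrix markers, led in level by Dcn and Col1a2, 8 fell in wild type and 1 in miR-155-/-. Of 10 endothelial markers, led by Flt1 and Plvap, 2 and 4 fell. Of 9 lymphocyte markers tested, led by Cd4 and Cd3e, 2 and 4 fell. The wild type counts of the endothelial and lymphocyte lists lie near the share of all genes that fell. Of 8 podocyte markers, 2 rose and 1 fell in wild type, and 1 rose and 1 fell in miR-155-/-. Of 7 red blood cell markers tested, led by Hba-a2 and Slc4a1, 6 fell in each genotype. Slc4a1 also stands in the list of thick limb, distal tubule and collecting duct. It had fallen at 24 h (-1.79 in wild type and -2.75 in miR-155-/-), where the globins Hba-a1, Hba-a2, Hbb-bs and Hbb-bt were not called.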
